A study of Mus musculus with 8 samples.

Results

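Autophagy delivers cytoplasm, protein aggregates and mitochondria to the lysosome inside a double membrane, the autophagosome. Proteins of the ATG8 family, which comprises the LC3 and GABARAP groups, are attached to lipid on that membrane by a ubiquitin-like conjugation system, while a lipid kinase complex marks the site where the membrane forms and receptor proteins bring cargo to it. In haematopoietic stem cells (HSC) autophagy is known for limiting the number of mitochondria, and loss of Atg7 or Atg12 in blood cells of mice impairs their function.

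The 10 genes described here, of 22242 genes named on the array, are Map1lc3b, Map1lc3a, Gabarap, Gabarapl1 and Gabarapl2 of the ATG8 family, Atg5, Atg7 and Atg12 of the conjugation system, Becn1 of the lipid kinase complex and the cargo receptor Sqstm1. All probes that carry one of these names or an older alias were taken, which gave 18 of 41174 probes. Of these, 15 passed the filter on dim signal and entered the tests, at least 1 for each of the 10 genes, beside 32776 tested probes in all. The set was chosen by a measured value, the high signal of a Map1lc3b probe in knockout cells from primary recipients, to which its pathway partners were added. The comparison of genotypes in primary recipients, and the difference between recipients built on it, are therefore given as descriptions without a test.

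The study compared HSC that lack E47, a basic helix-loop-helix transcription factor made from the gene Tcf3, with wild-type (WT) HSC. Donor-derived cells of each genotype were sorted from mice that had received them in a first transplantation (primary recipients) or in a second one (secondary recipients), and each of the 4 groups was measured on 2 one-colour arrays after PCR amplification of the cDNA. The groups are therefore WT primary, knockout (KO) primary, WT secondary and KO secondary. The E47 allele, the mouse strains, the ages, the conditioning of the recipients and the sort markers are not stated in the labels. Nor do the labels say that the paired arrays of a group came from separate mice, and p-values then reflect nothing but array-to-array spread, possibly technical.

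The arrays were not of equal quality. The 75th percentile of the spot intensity, by which each array was scaled, was 36.6 on replicate 2 of WT primary and 19.6 on replicate 2 of KO primary, against 321 to 847 on the other 6 arrays. These 2 dim arrays had 41.9% and 35.4% of spots well above background, the others 72.2% to 90.7%. All 4 WT arrays shared 1 slide, whereas KO primary and KO secondary had separate slides. The effects of genotype and slide therefore cannot be told apart. Within KO the same holds for recipient and slide, and it holds for the difference between the genotypes in the change between recipients. Only in WT were both recipients on the same slide. Of 12 HSC marker genes, 5 were well above background on both arrays of WT primary, 6 in KO primary, 11 in WT secondary and 12 in KO secondary. The primary counts include the 2 dim arrays, where fewer spots of any kind were well above background. The summed log2 level of the HSC markers was 4.64 to 11.05 in WT primary and 3.58 to 4.87 in KO primary. Both the 11.05 and the 3.58 were on the dim arrays. In WT secondary the summed level was 6.26 to 6.36 and in KO secondary 5.71 to 6.34. The summed level of 10 neutrophil genes, in log2 units relative to the 75th percentile, was 7.95 to 13.35 in WT primary and 7.83 to 13.95 in KO primary. Both upper values were on the dim arrays, and the 7.95 and 7.83 were on replicate 1. In secondary recipients the summed level was lower, at 2.70 to 3.44 in WT and 3.44 to 4.65 in KO. Of these 10 genes, 9 were well above background on both arrays of each primary group, 7 in WT secondary and 8 in KO secondary. The neutrophil genes Lcn2 and S100a8, which code for a granule protein and a calgranulin, were well above background on none and on 1 of the 4 secondary arrays. In sorted bulk samples fewer cells of a type and less RNA per cell cannot be told apart, and the part of these other cells in the differences between recipients was not tested.

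The array tells the members apart by 60-base probes, and the letters matter most within the ATG8 family, whose genes are close relatives. The probe of Gabarap at chr11:69808889-69810706 (mm8, plus strand, across an intron) and the probe of Gabarapl1 at chr6:129504370-129506842 (mm8, plus strand, across an intron) are set side by side, with the bases they share at their best ungapped match in capitals.
Gabarap A_52_P558188: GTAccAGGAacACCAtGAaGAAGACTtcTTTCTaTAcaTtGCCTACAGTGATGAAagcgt
Gabarapl1 A_51_P304757: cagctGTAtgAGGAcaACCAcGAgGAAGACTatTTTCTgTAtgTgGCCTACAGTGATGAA
They share 43 of 55 aligned bases, or 78.2%, while no other pair of probes from different member genes shared more than 25. A further 4 probes are shown because the results below turn on them: a Map1lc3b probe at chr8:124482084-124482143, a second Gabarap probe at chr11:69808788-69808847, a Becn1 probe at chr11:101106547-101107489 on the minus strand and an Atg7 probe at chr6:114742586-114742645, all in mm8 and on the plus strand unless stated.
Map1lc3b A_52_P563475: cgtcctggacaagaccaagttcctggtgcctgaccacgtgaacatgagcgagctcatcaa
Gabarap A_51_P295312: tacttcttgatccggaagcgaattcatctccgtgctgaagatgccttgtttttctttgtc
Becn1 A_51_P489337: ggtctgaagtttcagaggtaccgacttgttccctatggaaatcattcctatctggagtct
Atg7 A_52_P34494: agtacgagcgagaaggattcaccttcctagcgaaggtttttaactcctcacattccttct

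Levels below are log2 intensities relative to the 75th percentile of the same array, and can be compared between arrays for a probe but not between probes. In each sentence of levels, the arrays of a group are given as replicate 1 and then replicate 2. Differences are log2 differences between group means relative to the median of all tested probes, with the standard error (SE) of the limma fit and 2 arrays per group. Before that centring the median probe differed by 0.33 between KO and WT primary, 0.40 between KO and WT secondary, -0.75 between WT secondary and primary and -0.38 between KO secondary and primary. P-values refer to the difference before centring and were adjusted over all tested probes by the Benjamini-Hochberg method.

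**Figure D1:**
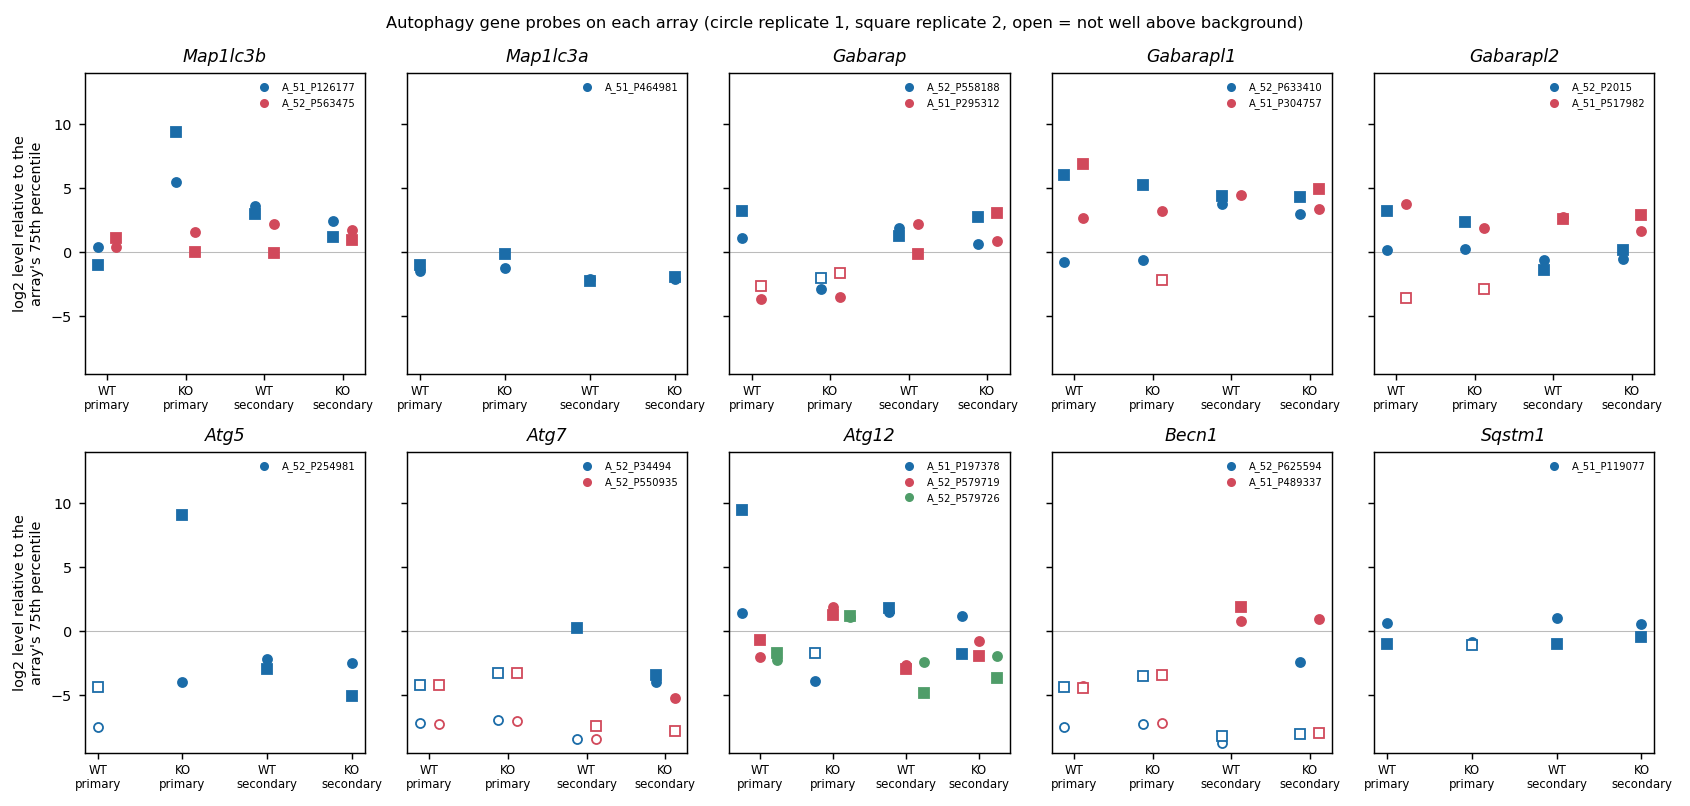
Level of every probe of the 10 autophagy genes on each of the 8 arrays, as log2 intensity relative to the array's 75th percentile (y axis), by group (x axis). Circles are replicate 1, squares replicate 2, colours are the probes of a gene, and open symbols were not well above background; the blue Map1lc3b probe lies between 5.5 and 9.39 in KO primary while the red one stays between -0.04 and 2.17 on all arrays.

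Map1lc3b codes for LC3B, the ATG8 protein most used as a mark of autophagosomes, and its probes gave different pictures. The downstream probe A_51_P126177 (chr8:124483931-124483990, mm8, plus strand) read 0.38 and -1.03 in WT primary, 5.5 and 9.39 in KO primary, 3.59 and 2.95 in WT secondary, and 2.48 and 1.22 in KO secondary. The order from low to high was WT primary, KO secondary, WT secondary, KO primary, with no overlap between groups next to each other, and the probe was well above background on all 8 arrays. The KO minus WT difference was 7.44 (SE 1.47) in primary recipients and 4.97 without the 2 dim arrays, against -1.82 (SE 1.47) in secondary recipients, where the groups also did not overlap but the difference was of the size of its error (adjusted p 0.957 by limma). The change from primary to secondary recipients was 4.34 (SE 1.47) in WT and -5.21 (SE 1.47) in KO, the latter -3.49 without replicate 2 of KO primary.

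The second Map1lc3b probe, A_52_P563475, lies 1847 bases upstream on the genome. It read 0.40 and 1.14 in WT primary, 1.62 and 0.02 in KO primary, 2.17 and -0.04 in WT secondary, and 1.75 and 0.97 in KO secondary. All 4 groups overlapped, although this probe too was well above background on every array. Its KO minus WT difference was -0.28 (SE 1.22) in primary recipients and -0.10 (SE 1.22) in secondary recipients, the latter with an adjusted p of 0.993 by limma. The gap between the probes, downstream minus upstream, has no meaning in its height but would stay the same over the arrays if both moved alike. It moved by 11.54, from -2.17 on replicate 2 of WT primary to 9.37 on replicate 2 of KO primary, which are the dim arrays. The large KO value of Map1lc3b in primary recipients thus rests on 1 of its 2 probes.

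The genes whose 8-array profile was closest to that of the downstream Map1lc3b probe were Wdr1, an actin-disassembly factor, St13, a co-chaperone of Hsp70, and Sgce, a sarcoglycan. Likeness was the root mean square difference between profiles after each was centred on its own mean, over 8 arrays and 16614 genes. It was 0.75 for Wdr1, 0.76 for St13 and 0.87 for Sgce, against a median of 3.24 over all genes compared. Genes picked as the closest lie below that median by the way they were picked, so the contrast supports nothing. The profile they were matched to is that of the probe whose KO primary signal chose the set. Wdr1 read -1.19 and -1.49 in WT primary and 3.75 and 9.14 in KO primary, so that it too was highest on the dim KO array.

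Map1lc3a, the LC3A gene, was the steadiest member between replicates, with a residual standard deviation of 0.44. Its probe read -1.46 and -1.01 in WT primary, -1.28 and -0.13 in KO primary, -2.13 and -2.27 in WT secondary, and -2.14 and -1.98 in KO secondary. The 4 secondary arrays all lay below the 4 primary arrays, and the genotypes overlapped in primary recipients. Secondary minus primary over both genotypes was -0.64 (SE 0.66), with an adjusted p of 0.373 by limma, so the separation did not pass the test. KO minus WT was 0.20 (SE 1.01) among primary recipients, and among secondary recipients it was -0.25 (SE 1.01).

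Gabarap, the founding member of the other ATG8 branch, had 2 tested probes, 1 of them separated by recipient. The probe A_51_P295312 read -3.65 and -2.65 in WT primary, -3.49 and -1.67 in KO primary, 2.17 and -0.18 in WT secondary, and 0.88 and 3.09 in KO secondary. Every secondary array lay above every primary array, but replicate 2 of both primary groups was not well above background. Secondary minus primary was 4.89 (SE 1.37) in WT, 4.95 (SE 1.37) in KO and 4.88 (SE 0.91) over both genotypes, with an adjusted p of 0.0873 by limma for the last, which missed the threshold of 0.05. The probe passed the filter on dim signal through the secondary groups alone, where it was high, so these differences describe it and support nothing further. Without the 2 dim arrays the difference over both genotypes was 5.48. The genotypes overlapped in both recipients, with KO minus WT at 0.24 (SE 1.37) among primary and at 0.60 (SE 1.37) among secondary recipients.

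The second Gabarap probe, A_52_P558188, differed between recipients in KO cells and hardly in WT cells. It read 1.13 and 3.20 in WT primary, -2.86 and -2.03 in KO primary, 1.86 and 1.24 in WT secondary, and 0.64 and 2.72 in KO secondary. The KO primary arrays stood below all others, replicate 2 of them not well above background, while the other 3 groups overlapped. KO minus WT was -4.94 (SE 1.24) among primary and -0.27 (SE 1.24) among secondary recipients, and normexp background correction lowered the size of the first to -2.52. Secondary minus primary was 4.50 (SE 1.24) in KO, with an adjusted p of 0.666 by limma, and 0.13 (SE 1.24) in WT.

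Gabarapl1, a close relative of Gabarap, was highest on the dim arrays. The tested probe A_52_P633410 read -0.79 and 6.07 in WT primary, -0.64 and 5.25 in KO primary, 3.79 and 4.40 in WT secondary, and 2.99 and 4.35 in KO secondary. Replicate 2 of each primary group was the highest and replicate 1 the lowest of the 8 arrays, so all groups overlapped. The genotype differences were -0.67 (SE 2.54) among primary and -0.82 (SE 2.54) among secondary recipients, and secondary minus primary in WT was 2.20 (SE 2.54), turning to -1.25 without replicate 1 of WT primary. The other probe, A_51_P304757, was not tested because its spot was marked as an outlier on replicate 2 of WT secondary. On the remaining 7 arrays it ranged from -2.20 on the dim KO primary array, where it was not well above background, to 6.88 on the dim WT primary array.

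Gabarapl2, also called GATE-16, had 2 probes that moved in opposite directions on the dim arrays. The downstream probe A_52_P2015 read 0.19 and 3.23 in WT primary, 0.24 and 2.38 in KO primary, -0.60 and -1.38 in WT secondary, and -0.54 and 0.17 in KO secondary. The secondary arrays all lay below the primary arrays, with replicate 2 of each primary group highest. The upstream probe A_51_P517982 read 3.79 and -3.57 in WT primary, 1.92 and -2.88 in KO primary, 2.78 and 2.56 in WT secondary, and 1.62 and 2.94 in KO secondary. Here replicate 2 of each primary group was lowest and not well above background, and the groups overlapped. Secondary minus primary over both genotypes was -1.57 (SE 0.93) for the downstream probe and 3.18 (SE 1.64) for the upstream one, with adjusted p-values of 0.290 and 0.403 by limma. Without the 2 dim arrays these became -0.38 and 0.04. The upstream probe passed the filter on dim signal through the secondary groups alone, where its mean was higher. Its difference between recipients therefore describes it and supports nothing further.

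**Figure D2:**
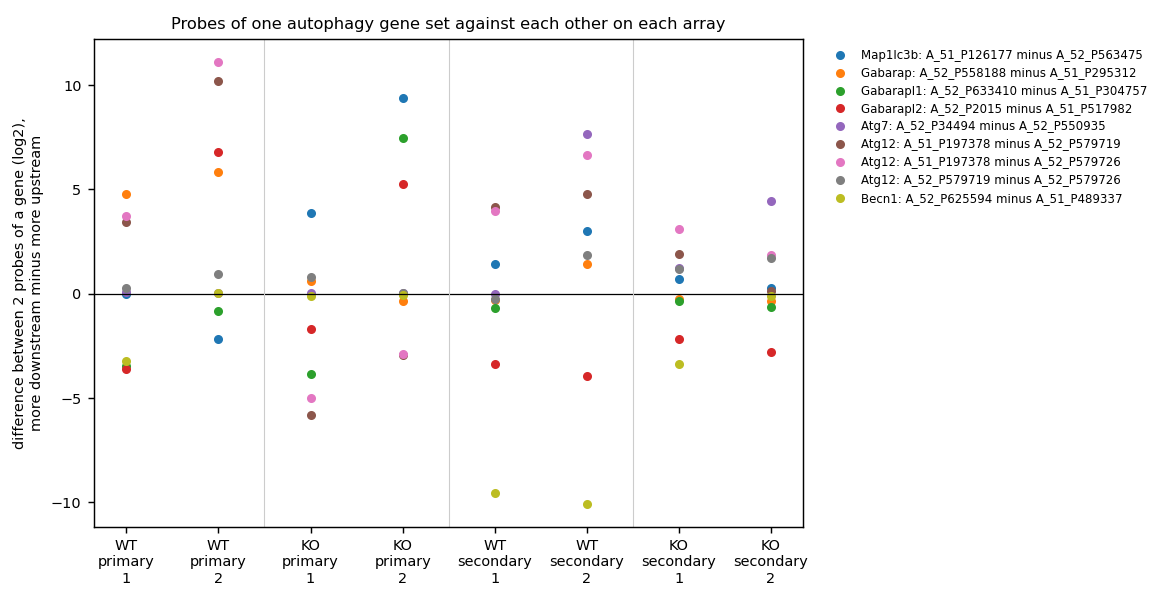
Difference between 2 probes of the same autophagy gene (y axis, log2, the more downstream probe minus the more upstream one) on each of the 8 arrays (x axis), 1 colour per probe pair. The height of a pair depends on its probes and is not read, whereas equal behaviour would give points at 1 height; the Map1lc3b pair runs from -2.17 to 9.37 and the pair of upstream Atg12 probes only from -0.23 to 1.88.

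In the conjugation system, Atg12 is the ubiquitin-like protein that is joined to Atg5, and its 3 probes on chromosome 18 fell into a pair that ran together and 1 that did not. The probe A_52_P579719 read -1.99 and -0.72 in WT primary, 1.92 and 1.23 in KO primary, -2.67 and -2.94 in WT secondary, and -0.75 and -1.92 in KO secondary. The KO arrays were higher than the WT arrays in both recipients without overlap. The probe A_52_P579726 read -2.28 and -1.67 in WT primary, 1.11 and 1.18 in KO primary, -2.44 and -4.82 in WT secondary, and -1.95 and -3.65 in KO secondary. It was likewise higher in KO primary than in any other group, while the secondary groups overlapped.

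KO minus WT in primary recipients was 2.60 (SE 1.07) for A_52_P579719 and 2.79 (SE 1.23) for A_52_P579726. In secondary recipients the differences were 1.07 (SE 1.07) and 0.44 (SE 1.23), with adjusted p-values of 0.930 and 0.969 by limma. Secondary minus primary in KO was -2.53 (SE 1.07) and -3.56 (SE 1.23), with adjusted p-values of 0.737 and 0.674 by limma. Both probes were well above background on all 8 arrays, and the gap between them moved by only 2.11 over the arrays.

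The remaining Atg12 probe, A_51_P197378, is the most downstream. It read 1.45 and 9.46 in WT primary, -3.90 and -1.71 in KO primary, 1.51 and 1.83 in WT secondary, and 1.15 and -1.81 in KO secondary. The dim WT primary array stood far above the rest, and the KO arrays lay below the WT arrays in each recipient, the reverse of the other 2 probes. KO minus WT was -8.59 (SE 2.46) in primary recipients, -4.78 without replicate 2 of WT primary and -12.39 without replicate 1 of WT primary. In secondary recipients it was -2.40 (SE 2.46), with an adjusted p of 0.966 by limma. The direction of Atg12 between genotypes therefore depended on the probe.

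Atg5, the partner of Atg12, had a single probe, A_52_P254981 (chr10:44051929-44051988, mm8, plus strand). It read -7.48 and -4.35 in WT primary, -3.95 and 9.12 in KO primary, -2.21 and -2.93 in WT secondary, and -2.50 and -5.08 in KO secondary. Replicate 2 of KO primary stood alone at the top, and neither WT primary array was well above background. The KO primary arrays differed from each other by 13.06, the largest replicate difference of any tested member probe. Set against the lowest signal well above background, KO primary was at least 77.6-fold and WT secondary at least 2.18-fold higher than WT primary, where the measured means were -5.91 in WT primary, 2.59 in KO primary and -2.57 in WT secondary. The first bound rests on replicate 2 of KO primary, the dim array: replicate 1 lies below the mean signal that stands for WT primary in the bound, so that no bound is left without replicate 2. Without replicate 2 of KO primary the KO minus WT difference in primary recipients went from 8.17 (SE 3.64) to 2.20, and secondary minus primary in KO went from -5.99 (SE 3.64) to 0.32. In secondary recipients KO minus WT was -1.62 (SE 3.64), with an adjusted p of 0.984 by limma and overlapping arrays.

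Atg7, the enzyme that activates both Atg12 and the ATG8 proteins, was near background on most arrays. The probe A_52_P34494 was well above background on 3 of the 8 arrays, at 0.24 on replicate 2 of WT secondary and at -4.0 and -3.41 on the KO secondary arrays. It was not well above background on any primary array or on replicate 1 of WT secondary, where it read -8.46, so the WT secondary arrays differed by 8.69. The probe entered the tests through KO secondary alone, so its comparison with WT secondary is a description. KO minus WT in secondary recipients was 0.01 (SE 2.72), with an adjusted p of 0.997 by limma. It depended on which WT secondary array was kept, and became -4.27 without replicate 1 of WT secondary and 4.37 without replicate 2. The untested probe A_52_P550935 was well above background on 1 array, replicate 1 of KO secondary, at -5.24.

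Becn1 codes for Beclin 1, the scaffold of the lipid kinase complex. The probe A_51_P489337 read -4.28 and -4.43 in WT primary, -7.22 and -3.41 in KO primary, 0.82 and 1.87 in WT secondary, and 0.97 and -7.98 in KO secondary. It was well above background on 4 arrays, both of WT secondary and replicate 1 of WT primary and of KO secondary, and the WT secondary arrays lay above all primary arrays. The probe entered the tests through WT secondary alone, where it is high, and its difference there is a description, 6.45 (SE 2.68) for secondary minus primary in WT. In KO it was 2.19 (SE 2.68), changing to 6.32 without replicate 2 of KO secondary and to -1.88 without replicate 1. KO minus WT in secondary recipients uses the same WT secondary group and is likewise a description. It was -5.25 (SE 2.68), with an adjusted p of 0.901 by limma and overlapping arrays, and became -0.96 without replicate 2 of KO secondary. The untested probe A_52_P625594 was well above background on replicate 1 of KO secondary only, at -2.39.

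Sqstm1, the receptor that binds ubiquitin-tagged cargo and LC3, varied little. Its probe A_51_P119077 read 0.64 and -1.03 in WT primary, -0.83 and -1.11 in KO primary, 1.04 and -1.01 in WT secondary, and 0.58 and -0.43 in KO secondary. The genotypes overlapped in both recipients, and only the KO secondary arrays lay above those of KO primary, 1 of which was not well above background. KO minus WT was -1.10 (SE 1.20) among primary and -0.34 (SE 1.20) among secondary recipients. Secondary minus primary over both genotypes was 1.15 (SE 0.80), with an adjusted p of 0.692 by limma.

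**Figure D3:**
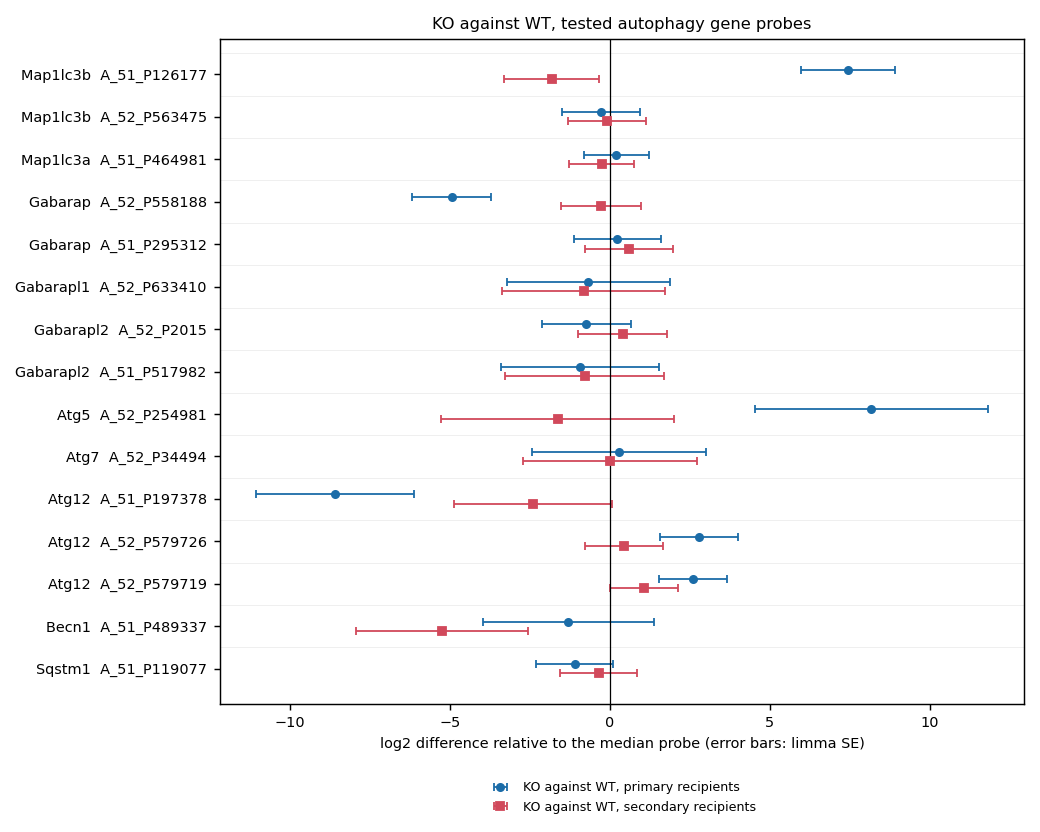
KO minus WT log2 difference relative to the median tested probe (x axis) for the 15 tested probes of the autophagy genes (y axis), in primary recipients (blue circles) and secondary recipients (red squares), with the limma standard error as bars and 2 arrays per group. Primary recipients span -8.59 to 8.17 and secondary recipients -5.25 to 1.07; in the primary recipients the probes of Map1lc3b, Gabarap and Atg12 stand apart from other probes of the same gene.

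Over the 15 tested probes, KO minus WT in primary recipients had a median of -0.28 and ran from -8.59 to 8.17. The genotypes did not overlap for 4 higher and 2 lower probes, beside 17.4% of all tested probes higher and 8.44% lower. Nothing is read from these counts, since the probes were assembled with this comparison in view. In secondary recipients, which that choice did not use, the median was -0.27 and the range -5.25 to 1.07. There 2 probes were higher and 2 lower without overlap, beside 31.7% and 13.5% of all tested probes. By limma 0 of the 15 probes passed an adjusted p of 0.05 in secondary recipients and 0 passed an unadjusted p of 0.05, beside 0% of all tested probes at the adjusted level and, unadjusted, 3.87% higher and 2.06% lower. The median size of the difference, 0.60, lay below the 0.97 of all tested probes. Becn1 A_51_P489337 entered the tests through WT secondary alone and Atg7 A_52_P34494 through KO secondary alone. The counts in secondary recipients therefore describe the tested probes.

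**Figure D4:**
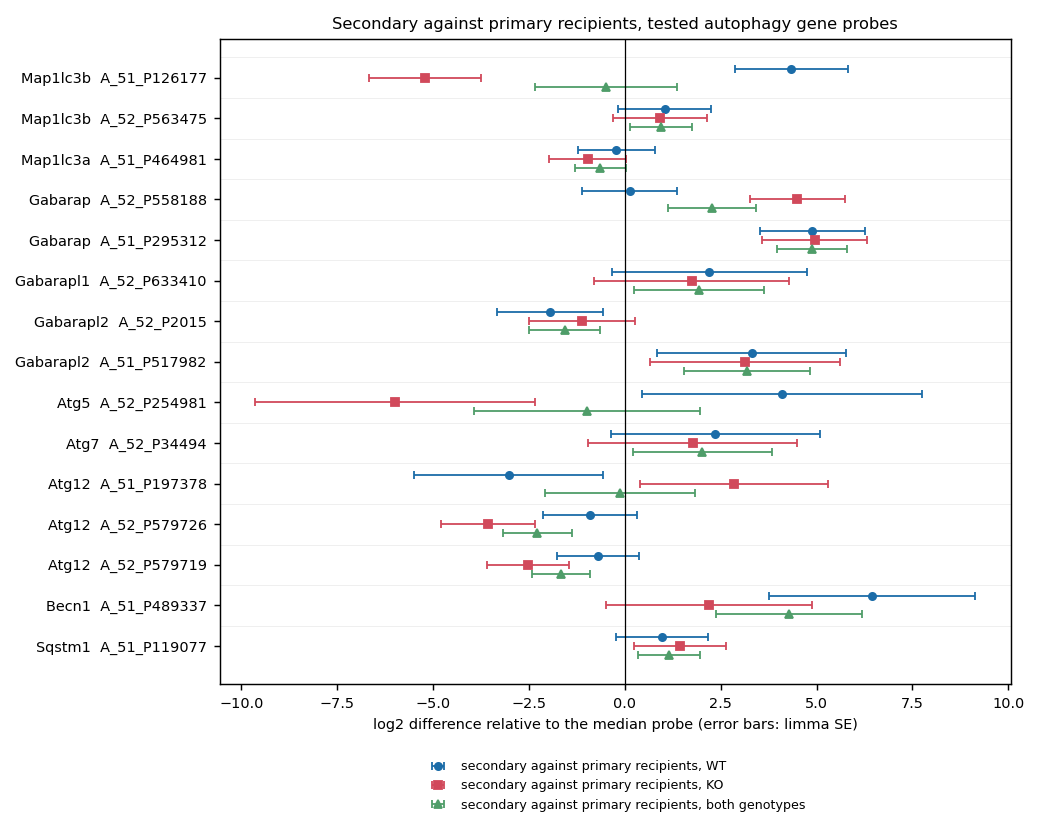
Secondary minus primary log2 difference relative to the median tested probe (x axis) for the 15 tested probes of the autophagy genes (y axis), in WT (blue circles), KO (red squares) and both genotypes together (green triangles), with the limma standard error as bars. The Gabarap probe A_51_P295312 lies at 4.89, 4.95 and 4.88, while the downstream Map1lc3b probe lies at 4.34 in WT and -5.21 in KO.

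Between recipients, the tested member probes had a median difference of 1.04 in WT and 1.43 in KO, beside 0 for all tested probes. The WT median was -0.06 without replicate 1 of WT secondary and 0.48 over the 7 member probes well above background on all arrays. The KO median was 0.14 without replicate 1 of KO primary, 0.52 without replicate 2 of KO primary, 0.49 without both dim arrays and -0.40 over those 7 probes. Because some probes passed the filter on dim signal through 1 kind of recipient alone, these medians and the counts that follow describe the tested probes and support no difference. In WT, 4 probes were higher and 4 lower without overlap, beside 18.8% and 35.8% of all tested probes, and in KO 3 were higher and 5 lower, beside 14.1% and 25.2%. By limma 0 of the 15 probes passed an adjusted p of 0.05 in either genotype, beside 0% of 32776 probes. At an unadjusted p of 0.05, 2 member probes were higher and 0 lower in WT, beside 7.16% and 5.17% of all tested probes. In KO, 2 were higher and 3 lower, beside 4.03% and 2.2%; 1 of the 3 is the downstream Map1lc3b probe, whose high KO primary signal chose the set, and nothing is read from this count. Over both genotypes limma called 103 of 32776 probes (0.314%) at an adjusted p of 0.05, and 0 of the 15 member probes; at an unadjusted p of 0.05 it was 1 higher and 2 lower, beside 7% and 10.4%. Without overlap between recipients 1 probe was higher and 2 lower, beside 4.07% and 10.6%. At an unadjusted p of 0.05 the higher probe was Gabarap A_51_P295312 and the lower ones were Atg12 A_52_P579719 and A_52_P579726. These comparisons share arrays with the genotype comparisons, and in primary recipients the neutrophil markers and the dim arrays moved with them. In KO the slide changed with the recipient as well.

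KO minus WT over both recipients, which includes the primary arrays used to choose the set, had a median of -0.11 and was not tested for the members. The difference between the genotypes in how secondary recipients departed from primary ones, likewise a description, was -9.38 (SE 2.08) for the downstream Map1lc3b probe and -6.90 without the 2 dim arrays. The other Map1lc3b probe gave 0.06 (SE 1.72).

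Probes of 1 gene were compared by the sign of their differences. The share of same-sign pairs over all genes was not computed, so the counts describe the member pairs alone. Some signs come from differences below their SE. In primary recipients KO minus WT was -0.28 (SE 1.22) for Map1lc3b A_52_P563475, or 0.05 before centring, and 0.24 (SE 1.37) for Gabarap A_51_P295312. Among 6 pairs of tested probes of the same member gene, 3 of them among the Atg12 probes, the differences had the same sign in 2 pairs for KO against WT in primary recipients and in 2 in secondary recipients, in 5 for secondary against primary in WT and in 2 in KO. Over the arrays, the difference between paired probes spanned a median of 11.1 for the 6 member pairs and 6.84 for 12564 pairs of tested probes of all genes. The member pairs include that of Map1lc3b, at 11.54, which holds the KO primary signal that chose the set. They also include 2 Atg12 pairs, at 16 and 16.14, that share the probe A_51_P197378. Nothing is read from the contrast with all genes. Replicates of tested member probes differed by a median of 1.67 in WT primary, 2.14 in KO primary, 0.72 in WT secondary and 1.33 in KO secondary. For all tested probes these medians were 1.60, 1.78, 0.91 and 1.22.

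A further 66 genes of the pathway were listed by role, from the ULK kinase complex that starts autophagy to fusion with the lysosome, and 61 of them had a tested probe, 114 in all. In WT, 81 of the 114 probes lay above the median probe in secondary against primary recipients, with a median of 1.12 beside 0 for all tested probes. By limma 0 passed an adjusted p of 0.05; at an unadjusted p of 0.05, 20 were higher and 3 lower, beside 7.16% and 5.17% of all tested probes. The higher count became 8, with 15 lower, without replicate 1 of WT primary, 13 without replicate 2 of WT secondary and 7 without replicate 1 of WT secondary. Normexp background correction gave 5 higher and 9 lower. Over the 36 pathway probes well above background on all arrays, 1 was higher and 2 lower, with a median of 0.88. Of all probes that met this rule, 2.04% were higher and 13.3% lower. Some pathway probes passed the filter on dim signal through 1 kind of recipient alone. The counts and medians between recipients, here and below, therefore describe the tested probes and support no difference. In KO, 4 were higher and 3 lower at an unadjusted p of 0.05, beside 4.03% and 2.2% of all tested probes, with a median of 0.38. These became 1 and 10 without replicate 1 of KO primary, 9 and 4 without replicate 2 of KO primary and 11 and 5 without the 2 dim arrays. Over both genotypes 11 were higher and 7 lower, beside 7% and 10.4%, and the lowest adjusted p by limma was 0.0573. For KO against WT in primary recipients 4 were higher and 2 lower, beside 1.92% and 1.78%, with a median of 0.02; by limma 0 probes of the array (0%) passed an adjusted p of 0.05 there.

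The roles differed in their medians for WT secondary against primary. The cargo receptors had a median of 2.15 over 20 probes, fusion and lysosome genes 2.05 over 22, the lipid kinase complex 2.0 over 14, the ULK complex 1.21 over 10 and the regulators 1.20 over 16. The conjugation genes and LC3 proteases had 0.34 over 14, and the ATG9, ATG2 and WIPI genes -0.14 over 18. Differences between these roles were not tested.

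**Figure D5:**
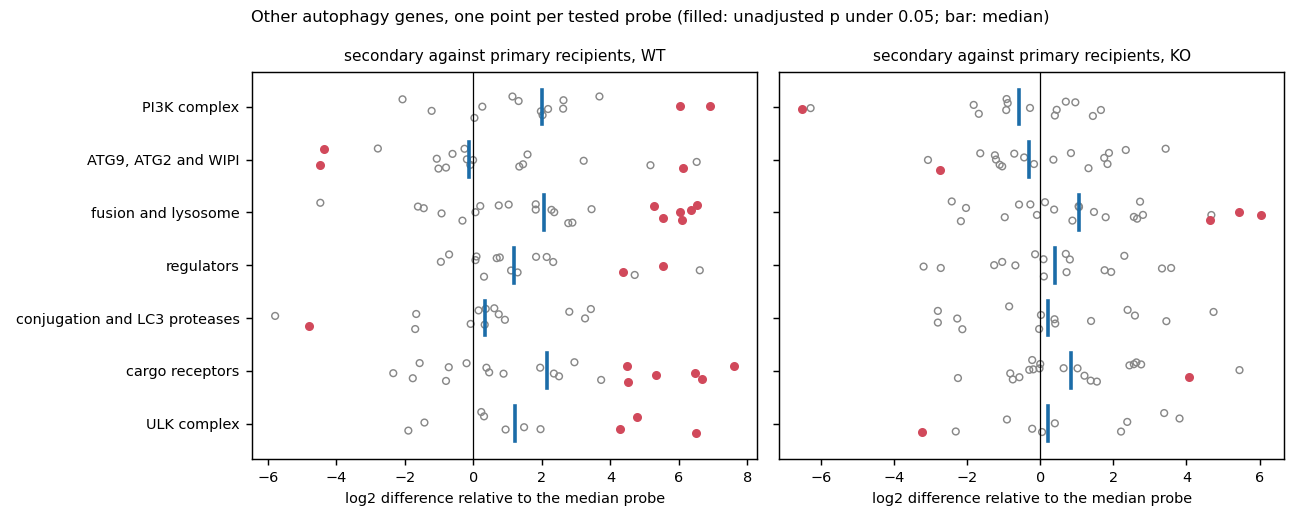
Secondary minus primary log2 difference relative to the median tested probe (x axis) for 114 tested probes of 61 other autophagy genes, by role (y axis), in WT (left) and KO (right). Filled points had an unadjusted limma p under 0.05 and bars are medians; in WT the cargo receptor median is 2.15 and that of the ATG9, ATG2 and WIPI genes is -0.14.

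Counting each gene by its brightest probe, those with the lowest p in WT were Nbr1, a cargo receptor related to Sqstm1, and Lamp2, a lysosomal membrane protein. Nbr1 (A_51_P248234) read -2.63 and -4.44 in WT primary and 2.45 and 2.36 in WT secondary. The difference was 6.68 (SE 1.68), with an adjusted p of 0.332 by limma, and of the other 2 Nbr1 probes 1 gave 2.35, while 1 was well above background on neither WT primary array and at least 3.02-fold higher in WT secondary. Replicate 2 of WT primary was not well above background for A_51_P248234. Lamp2 (A_51_P519536) read -7.23 and -4.18 in WT primary and 0.58 and -0.78 in WT secondary. Neither Lamp2 probe was well above background on a WT primary array, so only a bound can be given. WT secondary was at least 12.1-fold higher for this probe, with means of -0.10 and -5.70 and an adjusted p of 0.333 by limma. For the other Lamp2 probe it was at least 16.9-fold higher, with means of 0.39 and -5.40. The probe A_51_P519536 passed the filter on dim signal through the secondary groups alone, where it was high. Its differences between recipients therefore describe it and support nothing further. In WT the secondary arrays lay above the primary ones for A_51_P248234 and A_51_P519536, beside 18.8% of all tested probes. In KO the Nbr1 probe overlapped, at 2.37 and -1.05 in primary and 1.32 and -2.41 in secondary recipients. The Lamp2 probe read -4.7 and -3.23 in KO primary and -1.47 and 2.08 in KO secondary.

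Stx17, the SNARE that fuses the autophagosome with the lysosome, differed less evenly over its probes. The probe A_52_P681488 was not well above background on either WT primary array. It was at least 9.74-fold higher in WT secondary, with means of -0.41 and -5.75 and an adjusted p of 0.338 by limma. This probe too passed the filter on dim signal through the secondary groups alone, so its difference between recipients is a description. The other Stx17 probe gave a difference of 0.74 (SE 1.20). Atg9b, a lipid scramblase, was at 4.31 and 0.92 in WT primary and at -3.20 and -1.81 in WT secondary, a difference of -4.37 (SE 1.62) with an adjusted p of 0.350 by limma. In KO, the lowest p by brightest probe belonged to Uvrag, a subunit of the lipid kinase complex. It read 3.96 and 9.82 in KO primary, the 9.82 on the dim array, and 1.08 and -1.06 in KO secondary. The difference was -6.51 (SE 1.92) with an adjusted p of 0.636 by limma, where the other Uvrag probe gave -0.89.

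For KO against WT in secondary recipients, 77 of the 114 probes lay below the median probe, with a median of -0.67. At an unadjusted p of 0.05 by limma, 4 were higher and 6 lower, against the same 3.87% and 2.06% of all tested probes. These counts became 1 and 16 without replicate 1 of KO secondary, 4 and 2 without replicate 2 of KO secondary, 2 and 4 without replicate 1 of WT secondary, 4 and 3 without its replicate 2, and 0 and 7 with the series matrix values. By brightest probe, the lowest p belonged to Retreg1, a receptor for autophagy of the endoplasmic reticulum. It read 1.21 and 2.81 in WT secondary and -0.54 and -4.0 in KO secondary, without overlap. The difference was -4.67 (SE 1.39), with an adjusted p of 0.765 by limma, and the other Retreg1 probe gave -4.55.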

How the data were processed

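The authors' deposited scanner files give linear spot intensities for array design 014868. Per the file headers, Agilent Feature Extraction, version 10.5.1.1, made them and had subtracted the background. Values in the deposited series matrix were a ratio of intensity to the median of each array, as found by comparison with the scanner files (every column had a median of 1), and served as an alternative. Per the labels' protocols, mRNA-derived cDNA was amplified by PCR and labelled with Cy3. Probe positions are in mm8 per the file headers.

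Outlier spots were left out, spots of a probe averaged, and log2 of the intensity taken minus the array's 75th percentile. A probe was tested if it had a value on every array (41048 of 41174 did) and, in 1 or more groups, both arrays well above background. Of the 18 member probes, 16 took their gene from their accession in the RefSeq table of GRCm38.p6, and 2 from the name in the file. Tests used limma 3.58.1 (R 4.3.3), with 1 model of the 4 groups (residual degrees of freedom 4) and, for comparisons over 8 arrays, 1 of genotype plus recipient (5). "At least" folds set the bright group's mean against, on each dim array, the higher of the probe's own value and the lowest value well above background. The fits were tested on simulated data as a check of the code. How many changes they recover at the spread of these arrays is not given here. Pathway genes named in the text were taken from those of lowest p, counting each gene by its brightest probe, among genes under an unadjusted 0.05, at most 4 per comparison. The members, lists and tests were chosen with earlier results of these data known. Arrays limit precision by their number, 2 per group.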

Additional observations from a re-analysis of the deposited data

How the results depend on the processing

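The alternatives were normexp background correction, quantile normalization, the series matrix values, no filter on dim probes, only probes well above background on all arrays, 1 probe per gene, a replicate block, the slide as a random block, leaving out the 2 dim arrays, and leaving out each array in turn. Over both genotypes, the 103 probes called between secondary and primary recipients became 1 with normexp, 542 with quantile normalization, 228 with the slide block, and 0 with the series matrix values, without the filter, with probes well above background on all arrays, with 1 probe per gene, with the replicate block and without the 2 dim arrays; leaving out 1 array gave 0 to 0. KO against WT in primary recipients went from 0 to between 0 and 602 when 1 array was left out, with 602 without replicate 1 of WT primary, which leaves that group its dim array alone, assumed to vary like the other groups. The causes were not tested. The other comparisons had 0 called probes under every alternative that was run.

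In that same setting KO minus WT primary of Atg12 A_51_P197378 was -12.39; members are described without a test there, and the value rests on 1 dim array. Replicate numbers did not pair the arrays (correlations of deviations from -0.039 to 0.155), and the replicate block made no call of a member. Without the 2 dim arrays, 13 member differences changed sign, 3 of them above 2 in size: Atg12 A_51_P197378 from -3.03 to 0.85 and Gabarapl2 A_51_P517982 from 3.31 to -0.49 in WT, and Atg5 from -5.99 to 0.29 in KO, all secondary against primary.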
